A study of Caenorhabditis elegans with 2 samples.

Results

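The microRNA genes of C. elegans were examined for regions bound by the zinc-finger protein LSY-27, a transcription factor of the C2H2 kind, in ChIP-seq of whole young adult hermaphrodites. All nuclear genes with the biotype miRNA in the RefSeq annotation of the WBcel235 assembly (ce11) were taken, 260 of 46890 nuclear genes. The worms, of strain OP401, stably carried a transgene that fuses LSY-27 at its C terminus to GFP and FLAG, and the chromatin, sheared by sonication, was precipitated with an antibody against GFP; the antibody field of the labels names lsy-27 instead. All libraries form 1 group of 2 biological replicates, which the labels number 2 and 3; no list from untreated or untagged worms or from input was analysed here. The promoter that drives the fusion, and the cells it was made in, are not given in the sources used here.

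MicroRNAs are short RNAs cut from hairpin transcripts by Drosha and Dicer and loaded into Argonaute proteins, which they guide to partly matching messenger RNAs. Bases 2 to 8 of the mature strand, the seed, largely set which messages are bound, so genes with one seed form a family even when they lie on different chromosomes. Many C. elegans microRNA genes are made from promoters of their own, some lie in introns of protein-coding genes, and several are cut together from one clustered transcript. LSY-27 itself is known from the left/right difference between the ASE taste neurons, a difference in which the microRNA lsy-6 acts.

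Mature strands of families with strong regions are shown first, with the seed in capitals, as RefSeq places them on WBcel235; let-7 and lsy-6 are added because they are well known, not for their regions. The mir-35 family acts in the embryo, the mir-51 family belongs to the broadly expressed microRNAs, the mir-58 and mir-80 strands belong to the bantam group, and let-7 is the developmental timing microRNA. The mir-35 family shared the seed CACCGGG in 8 genes, and the mir-51 family shared ACCCGUA in 6 genes. The strands of mir-58.1 and mir-80 were counted as separate seeds.
mir-35: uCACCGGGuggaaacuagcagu
mir-36: uCACCGGGugaaaauucgcaug
mir-42: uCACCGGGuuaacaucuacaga
mir-51: uACCCGUAgcuccuauccauguu
mir-52: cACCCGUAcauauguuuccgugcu
mir-56: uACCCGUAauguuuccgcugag
mir-58.1: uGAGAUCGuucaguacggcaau
mir-80: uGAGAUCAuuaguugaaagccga
mir-45: uGACUAGAgacacauucagcu
mir-61: uGACUAGAaccguuacucauc
let-7: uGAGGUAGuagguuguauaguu
lsy-6: uUUUGUAUgagacgcauuucga

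The genomic windows of 4 genes are shown because they hold the region summits that the account of single genes turns on. Each runs 149 bp to either side of the pooled summit, is read 5′ to 3′ on the strand of the microRNA gene, and comes from the RefSeq WBcel235 genome. Capitals mark matches, on either strand, to 3 short motifs picked after the regions had been seen: GTTCGANNC, the core of the box B element inside tRNA genes; CTCCGCCC, an element reported upstream of nematode microRNA genes; and GAGAGA, a repeat common in promoters. The windows are chrIV:11025873-11026171 on the minus strand for mir-51, chrIII:6971909-6972207 on the minus strand for mir-5549, chrII:11537162-11537460 on the plus strand for mir-35, and chrV:11770127-11770425 on the minus strand for mir-61.
mir-51: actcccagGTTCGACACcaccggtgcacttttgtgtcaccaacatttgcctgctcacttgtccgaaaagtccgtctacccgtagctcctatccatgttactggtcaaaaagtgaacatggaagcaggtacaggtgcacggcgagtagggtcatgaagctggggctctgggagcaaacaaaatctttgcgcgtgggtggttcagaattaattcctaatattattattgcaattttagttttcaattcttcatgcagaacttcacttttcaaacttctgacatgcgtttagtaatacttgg
mir-5549: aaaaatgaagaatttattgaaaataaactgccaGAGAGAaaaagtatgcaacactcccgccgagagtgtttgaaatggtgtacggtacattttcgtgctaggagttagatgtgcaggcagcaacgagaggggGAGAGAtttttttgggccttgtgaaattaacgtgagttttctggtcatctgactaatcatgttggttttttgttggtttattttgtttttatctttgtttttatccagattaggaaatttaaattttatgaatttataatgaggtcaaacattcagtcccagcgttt
mir-35: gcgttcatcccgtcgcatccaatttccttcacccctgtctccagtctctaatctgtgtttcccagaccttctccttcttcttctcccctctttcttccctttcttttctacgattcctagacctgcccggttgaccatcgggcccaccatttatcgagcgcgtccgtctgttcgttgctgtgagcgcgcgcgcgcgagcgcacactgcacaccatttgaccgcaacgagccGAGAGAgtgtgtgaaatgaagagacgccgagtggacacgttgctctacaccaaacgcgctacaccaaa
mir-61: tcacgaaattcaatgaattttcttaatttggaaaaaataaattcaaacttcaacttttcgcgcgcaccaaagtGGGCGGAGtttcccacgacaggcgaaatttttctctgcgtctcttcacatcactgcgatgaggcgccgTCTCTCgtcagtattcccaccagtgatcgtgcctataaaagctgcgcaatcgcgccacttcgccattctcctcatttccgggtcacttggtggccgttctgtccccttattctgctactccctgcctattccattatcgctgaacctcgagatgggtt

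Of the 260 genes, 93 were intronic, meaning inside a protein-coding gene and touching no exon of one; 155 were intergenic, touching no protein-coding gene; and 12 touched an exon. The intronic genes lay in 77 hosts, with 64 on the strand of the host and 29 on the opposite strand. Neighbours on the same strand less than 2000 bp apart were joined into loci, which gave 222 loci; 21 of them held 2 or more genes, and the biggest held 7. The X chromosome carried 73 of the genes. A region was assigned to a gene when its summit lay within 500 bp of the gene, and separately when it lay within 2000 bp upstream of the 5′ end. Clustered genes can share a region, so they are not independent.

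The deposited data held 4 lists on this build: a pooled relaxed list of 30000 regions that reaches far into background, a thresholded list of 342 regions, and relaxed lists of 12414 regions for replicate 2 and 29326 regions for replicate 3. The thresholded list was the top of the pooled list, since its 342 regions were the 342 with the highest signal. Signal is the deposited value per region; the sources used here do not give its scale, so it was compared only within a list. The relaxed lists ended at a signal of 2.98 in the pooled list and 2.00 in each replicate. The lowest signal in the thresholded list was 22.12, and the median of the pooled list was 4.78 over its 29975 nuclear regions. Read depth is unknown. Shares carry exact Clopper-Pearson 95% intervals, which cover counting error only, and no test was run because there is a single group.

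Few microRNA genes lay at a thresholded LSY-27 region. A thresholded summit was within 500 bp of 2 of 260 microRNA genes (0.769%, interval 0.0933% to 2.75%), against 1.65% of all nuclear genes. These were mir-51 and mir-5549. Upstream within 2000 bp there were again 2 of 260 (0.769%), mir-235 and mir-354, against 1.24% of all nuclear genes. The share of tRNA genes with a thresholded summit within 500 bp was 24.0% (20.7% to 27.6%, n = 612), and that of protein-coding genes was 1.74%. At the 1000 strongest pooled regions, 18 microRNA genes (6.92%, 4.15% to 10.7%) had a summit within 500 bp. The share was 4.09% of all nuclear genes and 5.05% of protein-coding genes. Some of the 18 genes share a region, as mir-35 and mir-36 do, which the interval does not allow for.

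In the pooled relaxed list, 117 of 260 microRNA genes (45.0%, 38.8% to 51.3%) had a summit within 500 bp, a share near the 45.7% of all nuclear genes. Upstream the share was higher: 155 genes (59.6%, 53.4% to 65.6%) had a pooled summit within 2000 bp, against 47.0% of all nuclear genes and 52.5% of protein-coding genes. Counted by locus, 129 of 222 had one (interval 51.3% to 64.7%). Replicate 2 alone placed a summit within 500 bp of 75 genes (28.8%), against 25.9% of all nuclear genes, and upstream of 93 (35.8%), against 24.4%. Replicate 3 alone placed one within 500 bp of 110 genes (42.3%), against 45.7%, and upstream of 156 (60.0%), against 46.9%. The upstream share of microRNA genes was thus above that of all nuclear genes in each replicate.

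Asking for a summit of each replicate in the window left 54 microRNA genes within 500 bp (20.8%, 16% to 26.2%), against 18.5% of all nuclear genes. Upstream it left 76 (29.2%, 23.8% to 35.2%), against 15.3% of all nuclear genes. That is 60 of 222 loci (27.0%, 21.3% to 33.4%). The replicates' summits did not have to belong to overlapping regions, so these are not counts of reproduced regions. At lin-4, for example, the upstream summits stood at 1994 bp in replicate 2 and 537 bp in replicate 3. The same both-replicate upstream share was 19.8% in protein-coding genes, 20.2% in snRNA genes, 35.9% in tRNA genes and 41.0% in snoRNA genes. It was 15.5% in other ncRNA genes and 8.84% in piRNA genes. The microRNA genes thus lay above the protein-coding and snRNA genes and below the tRNA and snoRNA genes. Gene length enters the window of 500 bp around a whole gene: around the 5′ end alone, the both-replicate share was 19.6% for microRNA genes, 10.4% for protein-coding genes and 8.92% for all nuclear genes.

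**Figure D1:**
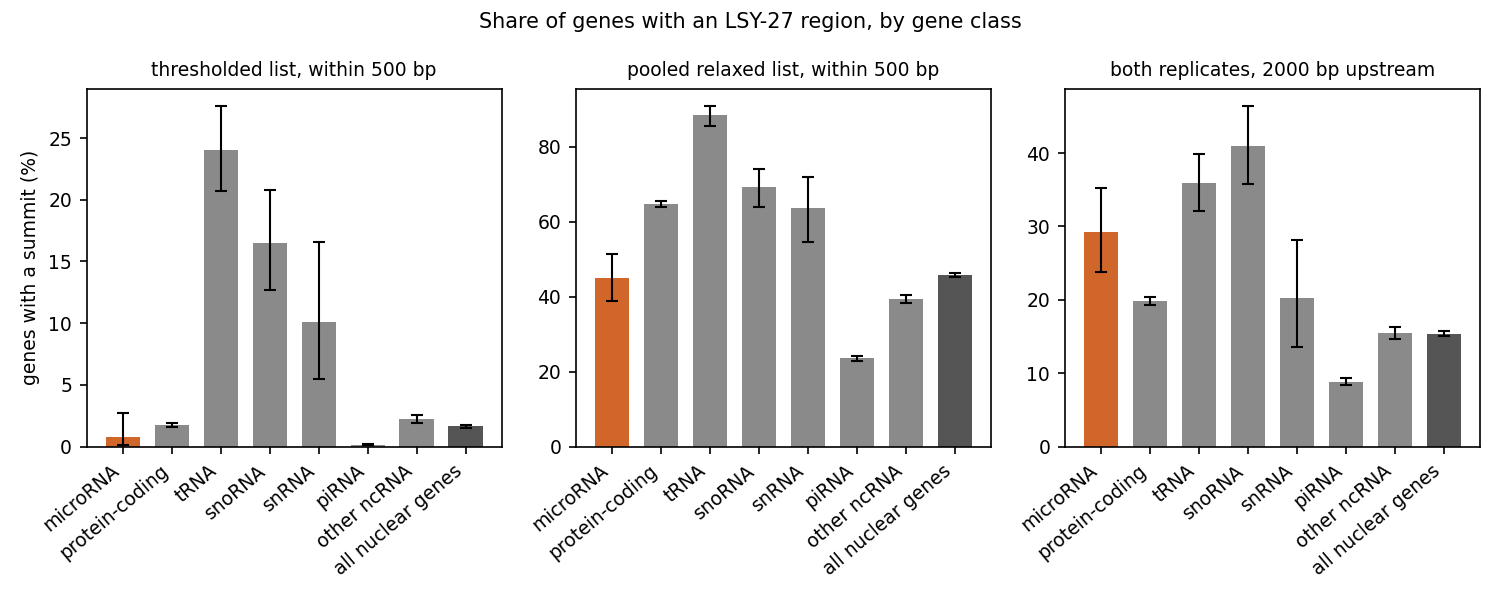
Share of genes in each RefSeq class (%, bars) with an LSY-27 summit, in 3 panels: thresholded list within 500 bp, pooled relaxed list within 500 bp, and both replicates' relaxed lists within 2000 bp upstream. Error bars are exact 95% binomial intervals; microRNA genes stand at 0.769%, 45.0% and 29.2%, against 1.65%, 45.7% and 15.3% of all nuclear genes.

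Pooled summits were counted most often just before the genes, in small numbers and with no profile of other genes beside them. Over the first gene of each of the 222 loci, pooled summits fell at 14.9 per 100 loci in the 250 bp before the 5′ end and at 14.4 in the 250 bp before that. In the other bins of 250 bp from 2000 bp upstream to 2000 bp downstream they fell at 4.95 to 11.7 per 100 loci. The values 14.9 and 14.4 stand for 33 and 32 summits, and the other bins held 11 to 26. The difference was not tested. Of the 117 genes with a pooled summit within 500 bp, 58 had the strongest one upstream of the 5′ end, 16 inside the gene and 43 beyond the 3′ end. The 126 distinct regions within 500 bp had a median signal of 5.35, with a range of 2.99 to 29.5. A region of both replicates overlapped 44 of them, and 21 were overlapped in neither replicate. In all, 30 of the 126 (23.8%) also lay in the promoter window of a protein-coding gene, taken as 1000 bp upstream to 200 bp downstream of its start, and 6 had a gene for a tRNA, snRNA or snoRNA within 500 bp. Their share in the signal at the microRNA genes was not tested.

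**Figure D2:**
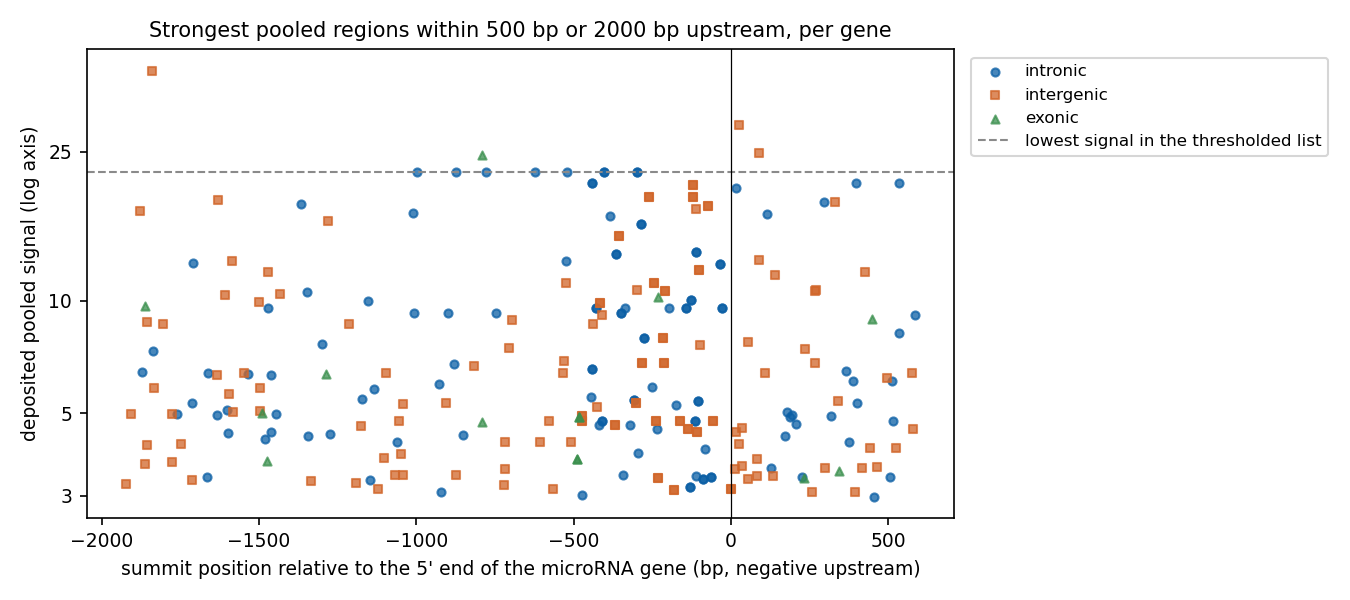
Position of the strongest pooled summit of each microRNA gene relative to its 5′ end (bp, negative upstream) against the deposited pooled signal (log axis), with 1 point for the strongest summit within 500 bp and 1 for the strongest within 2000 bp upstream, coloured by context. The dashed line is the lowest thresholded signal, 22.12; the row of intronic points just under it is the mir-35 cluster, whose 7 genes share 1 region.

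The mir-51 gene carried the strongest region within 500 bp that lay in no protein-coding promoter window. Its region, chrIV:11025864-11026179, had a pooled signal of 24.8 and rank 228, with the summit 90 bp past the 5′ end, inside the 100 bp gene at chrIV:11026013-11026112. Replicate 2 gave 9.84 at rank 206 and replicate 3 gave 9.50 at rank 1279. Both replicates therefore placed a region at the gene, with summits at +46 bp in replicate 2 and −76 bp in replicate 3. A second pooled region, with signal 17.6 and its summit 112 bp upstream, overlapped the first. No tRNA, snRNA or snoRNA gene lay closer than 57125 bp. In the window printed above, the GTTCGANNC match lies 51 bp before the 5′ end on the strand of the gene.

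The mir-5549 region, chrIII:6971900-6972215, was stronger but was high in replicate 3 only. Its pooled signal was 29.5 at rank 131, with the summit 27 bp inside the gene; replicate 3 gave 27.1 at rank 59, and replicate 2 gave 3.55 at rank 4376. The same summit lay 195 bp upstream of rfc-4, which encodes a replication factor C subunit, and 346 bp upstream of eef-1A.1, a translation elongation factor gene, so the 3 genes cannot be told apart as its target. Both GAGAGA matches in the printed window lie on the strand of the gene.

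Just under the threshold stood the mir-35 cluster. Its region, chrII:11537153-11537468, had a pooled signal of 22.05 and rank 347, the fifth strongest of the regions left out of the thresholded list. The summit was 297 bp upstream of mir-35, the first of 7 genes (mir-35 to mir-41) that lie in an intron of Y62F5A.9 on the opposite strand. Replicate 2 gave 8.65 at rank 327 and replicate 3 gave 12.8 at rank 554, with summits 262 and 296 bp upstream. The region lay in no protein-coding promoter window and 5017 bp from the nearest gene for a tRNA, snRNA or snoRNA. All of its 32-base words (100%) occurred once in the genome. The family member mir-42 lies apart from this cluster, in a locus of 3 genes with mir-43 and mir-44. It had no summit within 500 bp in any of the 4 lists, and a pooled signal of 4.19 at 507 bp upstream.

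The mir-51 family had a pooled summit within 500 bp of 6 of its 6 genes, at 3 loci. The mir-54, mir-55 and mir-56 cluster, which lies in an intron of F09A5.3 on the opposite strand, had a region at chrX:13144231-13144546 with a pooled signal of 20.6 at rank 410. Replicate 2 gave 4.08 and replicate 3 gave 15.7. The summit lay beyond the 3′ ends of mir-55 and mir-56 and 441 bp upstream of F09A5.15, a microRNA gene on the other strand. Upstream of mir-54, the first gene of the cluster, a weaker region stood at 28 bp with signal 9.56. The remaining members were lower, with pooled signals of 5.18 at mir-52 and 4.57 at mir-53.

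Further strong regions lay in promoter windows of neighbouring genes, inside hosts, on other short RNA genes or, at mir-45, at an intergenic gene with none of these. At mir-61 and mir-250 the pooled signal was 18.9, with 5.64 in replicate 2 and 10.3 in replicate 3, and the summit was 120 bp upstream of mir-61 and 194 bp upstream of F55A11.4. The mir-61 window printed above has a CTCCGCCC match on the other strand that begins 196 bp before mir-61. At mir-45, which shares its seed with mir-61, the pooled signal was 18.4, with 2.23 in replicate 2 and 16.6 in replicate 3. At mir-2214, in a B0361.11 intron, the pooled signal was 20.0 with the summit 18 bp inside the gene, and the replicates gave 3.90 and 20.4, again high in replicate 3 only. At mir-58.1, a bantam-group gene in a phkb-1 intron, the pooled signal was 16.0 with the summit 284 bp upstream, and the replicates gave 8.29 and 8.63. The mir-4934 summit (17.9) was 202 bp upstream of mtr-4, an RNA helicase gene, and the mir-4936 summit (14.9) was 222 bp upstream of nduf-9. The mir-77 summit (20.4) lay on the snoRNA gene T21B4.20, and the mir-1829.3 summit (18.3) lay on the tRNA gene F39B1.t1.

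**Figure D3:**
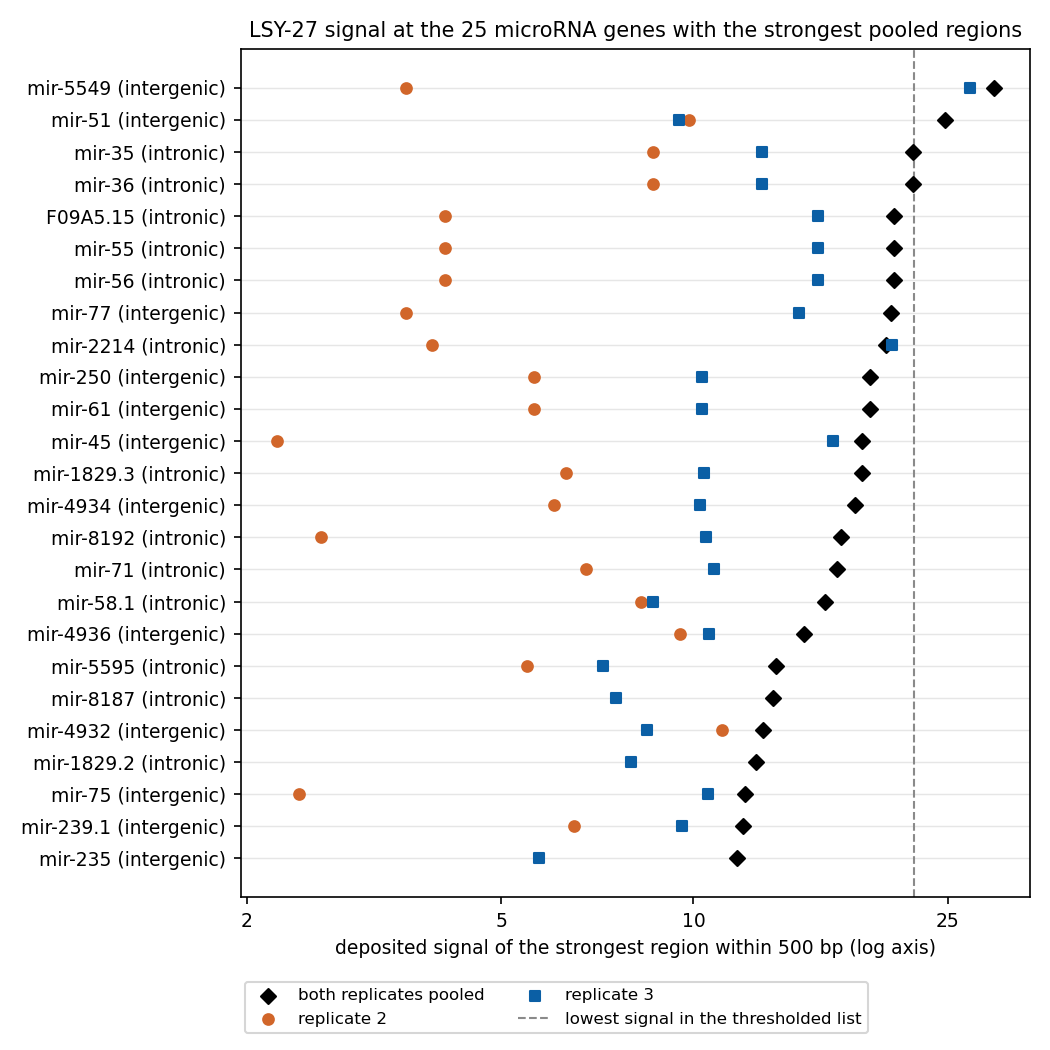
Deposited signal (log axis) of the strongest region within 500 bp for the 25 microRNA genes with the highest pooled values, top to bottom, with the pooled list as diamonds, replicate 2 as circles and replicate 3 as squares. Of these genes, 22 have a region within 500 bp in both replicates. The scale of the signal is not given and may differ between lists, so points are to be read within a list.

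Both genes with a thresholded summit upstream lay beside other candidate targets. The mir-235 region had a pooled signal of 41.3 at rank 43, with 14.8 in replicate 2 and 23.8 in replicate 3, but its summit, 1839 bp upstream, fell on the tRNA gene T09B4.t1. Of its 32-base words, 82.1% occurred once in the genome. The mir-354 region had a pooled signal of 24.5 at rank 240, with 9.36 in replicate 2 and 14.3 in replicate 3; its summit, 790 bp upstream, was 178 bp upstream of rps-20, the ribosomal protein gene whose exon mir-354 touches, and 219 bp upstream of ekl-4.

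The strongest regions of replicate 2 included those of a pair of clusters. Among its 342 strongest regions, as many as the thresholded list holds, 15 microRNA genes (5.77%, 3.26% to 9.34%) had a summit within 2000 bp upstream, against 1.16% of all nuclear genes. These 15 genes came from 6 loci, and 11 of them belonged to the mir-35 cluster and the mir-229 cluster. Within 500 bp there were 7 (2.69%), against 1.46%. Among the 342 strongest regions of replicate 3, 4 genes (1.54%) had one upstream, against 1.18%, and 6 (2.31%) had one within 500 bp, against 1.58%. At the mir-229 cluster, which lies in a gcn-1 intron with mir-64, mir-65 and mir-66, the region upstream of mir-229 had a signal of 8.76 at rank 315 in replicate 2, while the strongest summit within 500 bp in replicate 3 had 2.52 at rank 23088. The pooled signal there was 9.26.

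Over the 54 genes with a region within 500 bp in both replicates, the strongest signals had a Spearman rho of 0.47 and a Pearson r of 0.42 on the log2 scale between replicates. These are across genes, clustered genes share regions, and genes are not independent replicates. The strongest regions of the replicates at a gene need not overlap each other. A further 21 genes had a region in replicate 2 only, 56 in replicate 3 only and 129 in neither; the list of replicate 3 was the longer one. A total of 56 genes had no relaxed region within 500 bp or 2000 bp upstream in any list.

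**Figure D4:**
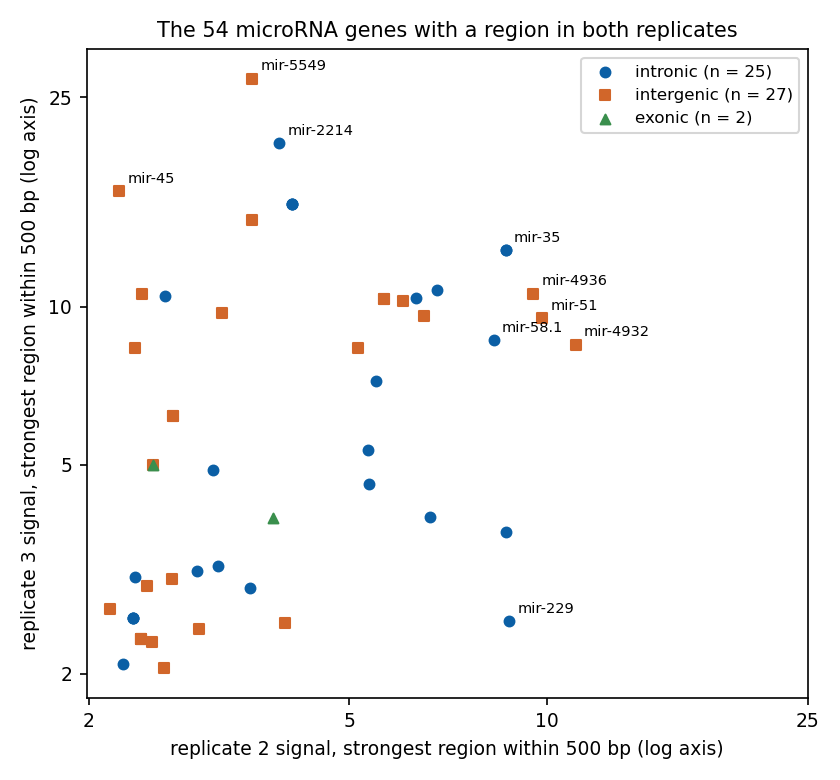
Deposited signal of the strongest region within 500 bp in replicate 2 (x axis, log) against replicate 3 (y axis, log) for the 54 microRNA genes with a region in both, coloured by context. The genes mir-35, mir-36, mir-51, mir-4936, mir-4932 and mir-58.1 are above 8 in each replicate, while mir-5549, mir-2214 and mir-45 are high in replicate 3 and mir-229 in replicate 2. A value of 8 need not mean the same in each list. At mir-4936 the values come from different regions. The one with 9.53 in replicate 2 had 5.25 in replicate 3, and the one with 10.6 in replicate 3 had no region of replicate 2.

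The gene lsy-6, the microRNA of the left ASE neuron, had no region in any of the 4 lists within 500 bp or 2000 bp upstream. It lies at chrV:10647232-10647304 and touches no protein-coding gene. The nearest pooled summit was 1297 bp away with a signal of 4.83 at rank 14718 of 30000. The nearest was 13653 bp away in replicate 2, with signal 4.54, and 884 bp away in replicate 3, with signal 2.62. The nearest thresholded summit was 161 kb away. In chromatin from whole animals, binding in few cells and weak binding in many cells cannot be told apart.

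The timing microRNAs had no thresholded summit within 500 bp or 2000 bp upstream. In the let-7 family, 4 of 7 genes had a pooled summit within 500 bp and none had one in both replicates. At let-7 itself the pooled signal was 8.92, with the summit 449 bp past the start of its 1732 bp transcript and no region of either replicate within 500 bp. Upstream, let-7 had a pooled signal of 9.66 at 1863 bp, with 4.09 in replicate 2 and 5.46 in replicate 3, in the promoter window of wshc-2. Its sisters gave 4.13 at mir-241, 3.53 at mir-48 and 3.12 at mir-795, and mir-793 had no region in any list. The gene lin-4, the founding microRNA, had no region within 500 bp. Upstream it had a pooled signal of 9.57 at 1470 bp, where replicate 3 gave 5.74 and replicate 2 had no overlapping region. A second pooled region stood nearer the gene, with a signal of 8.87 at rank 3519. Replicate 3 gave 9.43 there at rank 1302, with its summit 537 bp upstream, and replicate 2 again had no overlapping region. The lin-4 relative mir-237 had a pooled signal of 10.4 at 1432 bp upstream, with the summit 35 bp from the tRNA gene F22F1.t9. Of the 32-base words of that region, 73.0% occurred once in the genome. Within 500 bp mir-237 had a pooled signal of 6.40, with the summit 61 bp from the tRNA gene F22F1.t3. All pooled values in these families lie under the lowest thresholded signal.

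Single well-known microRNA genes differed widely. The ageing-related mir-71, in a ppfr-1 intron, had a pooled signal of 16.8 with the summit 384 bp upstream. The overlapping regions had 5.90 in replicate 2, with its summit 267 bp away, and 10.8 in replicate 3. The muscle microRNA mir-1 had no pooled region, and 3.11 at 8 bp upstream in replicate 2 only. The neuronal microRNA mir-124, in a trpa-1 intron, had 4.90 pooled and 4.74 in replicate 3. The gene mir-34 had 3.58 within 500 bp and 8.88 at 694 bp upstream, and mir-273 had 5.38, with 5.21 in replicate 2 and no region within 500 bp in replicate 3. Of 4 genes listed as mirtrons, a kind whose hairpin is a whole intron released by splicing, mir-1018 (4.75) and mir-62 (3.01) had a pooled summit within 500 bp. In the annotation used here mir-1018 touched no protein-coding gene, so it was counted as intergenic. Its region also lay within 500 bp of mir-4925, mir-4923.2 and mir-4923.1. In the bantam group, mir-58.1 had one and so did 4 of the 6 genes with the seed GAGAUCA, led by mir-80 (10.7); mir-58.2 and Y73B6A.17 had none. The listed member mir-1834 was not matched.

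Intronic microRNA genes had LSY-27 regions more often than intergenic ones in the relaxed lists. Within 500 bp, 53 of 93 intronic genes (57.0%, 46.3% to 67.2%) had a pooled summit, against 58 of 155 intergenic genes (37.4%, 29.8% to 45.5%), a difference of 19.6 percentage points. Upstream, 66 intronic genes (71.0%, 60.6% to 79.9%) had one, against 81 intergenic genes (52.3%, 44.1% to 60.3%), a difference of 18.7. In replicate 3 the shares within 500 bp were 51.6% of intronic and 36.1% of intergenic genes, a difference of 15.5. In replicate 2 they were 32.3% and 26.5%, a difference of 5.81. The difference was positive in each replicate but its size moved with the replicate, and in replicate 2 the intervals (22.9% to 42.7% intronic, 19.7% to 34.1% intergenic) overlap widely.

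**Figure D5:**
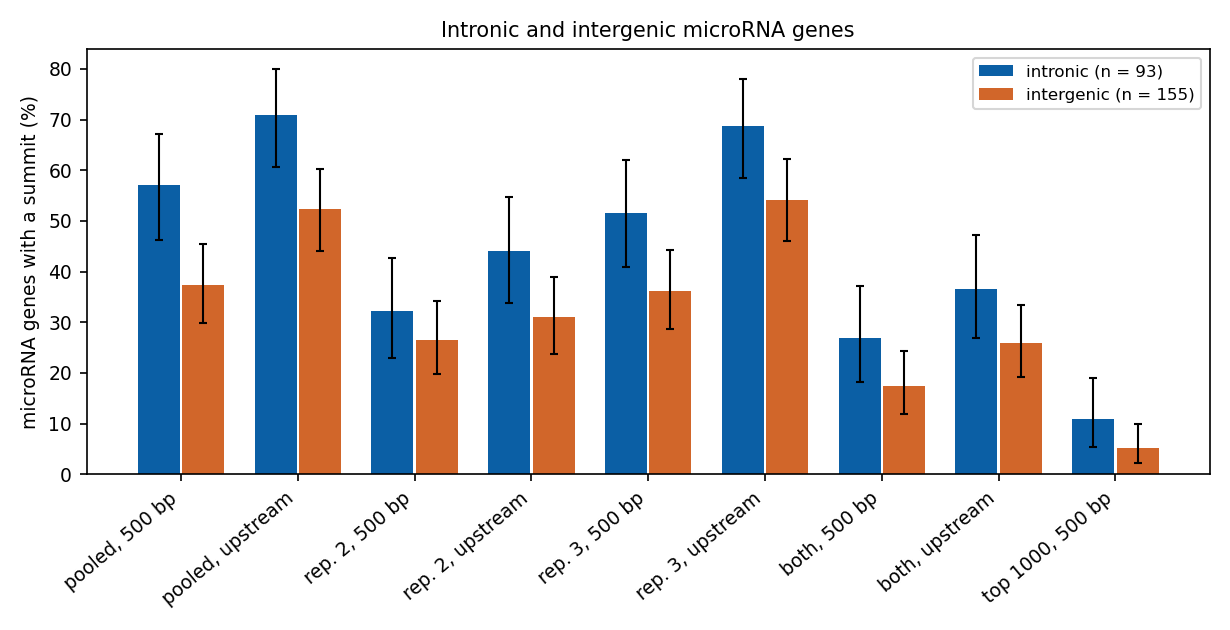
Share of intronic (n = 93, left bar of each pair) and intergenic (n = 155, right bar) microRNA genes with an LSY-27 summit (%), by list and window, with exact 95% binomial intervals. The intronic share is higher in each of the 9 pairs shown, with intervals that overlap in each pair except the pooled ones.

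By orientation, 19 of 29 genes on the strand opposite their host (65.5%, 45.7% to 82.1%) and 34 of 64 on the strand of the host (53.1%, 40.2% to 65.7%) had a pooled summit within 500 bp. By chromosome, the intronic and intergenic shares were 80.0% and 31.6% on the X chromosome, 71.4% and 42.3% on II, 58.3% and 45.5% on III, 50.0% and 44.8% on IV, 30.0% and 27.8% on V, and 41.2% and 42.9% on I. The X chromosome held 15 intronic and 57 intergenic genes. Without it the shares were 52.6% and 40.8%, a difference of 11.7, so the size of the difference rests in part on that chromosome. Counted by locus, 45 of 80 intronic loci (56.2%) and 50 of 130 intergenic loci (38.5%) had a summit. With regions in protein-coding promoter windows left out, 48.4% of intronic and 26.5% of intergenic genes had one.

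Signal gave no stable order between the contexts. At genes that had a pooled summit within 500 bp, the median of the strongest signal was 5.52 for intronic and 5.25 for intergenic genes. It was 4.08 and 2.93 in replicate 2, and 4.56 and 4.11 in replicate 3, while the pooled difference turned to -1.03 with only as many pooled regions as replicate 2 has. None of the 93 intronic genes had a thresholded summit within 500 bp (interval up to 3.89%), against 2 of 155 intergenic genes (1.29%, 0.157% to 4.58%). Base composition moved with context: the median GC content of the gene and the 500 bp to either side was 40.6% in intronic and 35.8% in intergenic genes. Within the intronic genes it was 40.8% with a pooled summit and 38.3% without; within the intergenic genes it was 36.2% with and 35.0% without. Its part in the result was not tested. In other classes measured the same way, pooled shares of intronic and intergenic genes were 27.4% and 21.7% for piRNA genes, 38.5% and 40.5% for other ncRNA genes, 87.7% and 89.3% for tRNA genes, and 71.3% and 67.7% for snoRNA genes. These differences were smaller than in microRNA genes, and were not tested.

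Motif matches were counted in the same windows as a description. The motifs were picked after the regions had been seen, and CTCCGCCC was already reported upstream of nematode microRNA genes. Higher shares at these genes are therefore no independent finding. The element CTCCGCCC was in the 1000 bp upstream of 35 of 260 microRNA genes (13.5%), against 4.77% of protein-coding genes; by locus it was upstream of 23 of 222 (10.4%). It was upstream of 20.4% of intronic and 9.68% of intergenic microRNA genes, and by locus of 13.8% and 8.46%. Among the pooled regions within 500 bp of a microRNA gene, 9 of 126 (7.14%) held it, against 1.58% of all nuclear pooled regions. The motif GAGAGA was in 53 of the 126 (42.1%), against 20.7% of all nuclear pooled regions and 32.7% of the nuclear thresholded ones. The box B core GTTCGANNC was in 10 of the 126 (7.94%), against 3.68% of all nuclear pooled regions and 37.1% of the 318 nuclear thresholded regions. The 10 include overlapping mir-51 regions that share a match. They also include the mir-1829.3 region, with its summit on a tRNA gene, and the mir-237 region, with its summit near one. In the 1000 bp upstream, GAGAGA was found at 54.6% of microRNA genes, against 45.8% of protein-coding genes. GTTCGANNC was upstream of 5.77% of microRNA genes, against 6.06% of protein-coding genes, and of 11.8% of intronic and 2.58% of intergenic microRNA genes. Both strands were searched, and GC content and region strength were not matched between the sets.

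The protein-coding genes of the microRNA pathway were looked up in the promoter window of 1000 bp upstream to 200 bp downstream. Of 20 listed biogenesis and silencing genes, chosen by name, 19 were matched (ntl-1 was not). Of these, 2 had a thresholded summit, against 1.07% of protein-coding genes, and 17 (89.5%) had a pooled one, against 41.5%. The list is short, the pooled list reaches far into background, and other genes near these summits were not looked up. In replicate 2, drsh-1, alg-1 and ain-1 had no summit in this window, and in replicate 3 dcr-1 had none. The Argonaute gene alg-5 had a pooled signal of 27.7 at 799 bp upstream, with 9.74 in replicate 2 and 15.8 in replicate 3. The gene vig-1, which encodes a subunit of the silencing complex, had 22.9 at 350 bp upstream, with 17.2 and 8.24. The main microRNA Argonautes alg-1 and alg-2 had 8.63 and 12.2, the Drosha gene drsh-1 had 9.87, the Dicer gene dcr-1 had 5.99, and the GW182-like gene ain-1 had 16.4; none of these 5 reached the thresholded list. Among 11 classic microRNA target genes, none had a thresholded summit and 5 (45.5%) had a pooled one, a share near that of all protein-coding genes. Signals ran from 3.62 at daf-12 to 5.42 at lin-14. The gene lin-28 is on both lists and is counted in the pooled totals of each.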

How the data were processed

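The authors' deposited region lists on ce11 were used as they stand: a pooled relaxed list, the list of regions thresholded for reproducibility between replicates, and a relaxed list for each replicate. In these lists the authors give per region a signal value, a −log10 q-value (the deposited q-value column, used for no filter) and a summit. Aligner, caller, control treatment and read depth are not given in the sources used here. Lists on ce10 were not used here. No column of per-sample values was left unmatched (0).

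Genes, exons, mature microRNA positions and sequence came from the RefSeq annotation of WBcel235, and all regions ended inside its chromosomes. Per gene, the region with the highest signal was taken by summit distance. Intervals are Clopper-Pearson, computed with scipy 1.17.1 under Python 3.11.15, pandas 2.3.3 and numpy 2.4.6; figures used matplotlib 3.10.9. The assignment of regions to genes was tested on simulated data with planted summits. No p-values were computed, since there is 1 group with 2 replicates. The replicates are biological by their labels, and nothing says how the cultures were grown.

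The members and lists were chosen with earlier results of these data known. Named were genes with a thresholded summit, the 25 with the highest pooled signal within 500 bp, the 10 highest upstream, the 5 highest within 500 bp in each replicate, well-known families and single genes, and the strongest member of each shared seed; only the informative ones are described. Alternatives changed the distances, the use of summits, list lengths, replicates, loci and host strand.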

Additional observations from a re-analysis of the deposited data

How the results depend on the processing

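Of 54 alternative values, 25 stayed close to the reported one, 28 moved and 1 changed sign. Counts of genes with a thresholded summit within 500 bp (2) were 5 at 1000 bp and 1 among the stronger 171 regions, and 6 to 7 with the strongest regions of a single replicate. Upstream (2) they were 1 within 1000 bp, 4 when the region only had to touch the window, 1 among the stronger 171, and 4 to 15 in single replicates. Pooled counts (117 within 500 bp, 155 upstream) were 59 at 200 bp, 61 and 90 with as many regions as replicate 2 has, and 75 to 110 and 93 to 156 in single replicates. Both-replicate counts (54 and 76) were 19 at 200 bp, 44 within 1000 bp upstream, and 34 and 46 with equal numbers of regions per replicate.

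The intronic minus intergenic share stayed positive in every alternative run. Within 500 bp (19.6 points) it was 7.96 at 200 bp and 5.81 to 15.5 in single replicates. In alternatives added after seeing the data it was 11.7 without the X chromosome, 9.46 for regions in both replicates and 5.59 at the 1000 strongest regions. Upstream (18.7) it was 19.8 within 1000 bp, 14.6 when the region only had to touch the window, and 13.1 to 14.6 in single replicates. The intronic minus intergenic median signal (0.26) became -1.03 with as many pooled regions as replicate 2 has, and was 0.46 to 1.15 in single replicates; the cause was not tested. Shorter lists and narrower windows hold fewer summits by construction. No paired analysis was possible because there is a single group. Read depth is unknown, so no limit on detection can be given.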
